A study of Homo sapiens with 18 samples.

Results

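The 10 genes described here belong to the bone morphogenetic protein (BMP) pathway. They are the ligands BMP2 and BMP4, the transducer SMAD9, the inhibitors of DNA binding ID1, ID2, ID3 and ID4, the transcription factor ATOH8, and the pathway inhibitors SMAD6 and BAMBI. They were taken by gene name from tables of 42141 genes. Of these 10, 9 passed the filter on low counts that left 16911 genes for testing, and ID4 was removed. SMAD6 and ATOH8 were selected on their large falls in wild-type acini with dimerizer against wild-type control. That difference is therefore given as a description with no test for all 10 genes, and so is its comparison between genotypes. For SMAD6 and ATOH8 every other difference that uses wild-type control or wild-type dimerizer libraries is also a value with no test. Whether the libraries of compared groups overlap was read for named genes only, and its share over all genes was not counted.

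RNA was sequenced from acini, hollow spheres of epithelium formed on growth factor reduced Matrigel by MCF-10A.B2 cells, a human mammary epithelial line. MCF-10A.B2 carries, as background knowledge, a chimeric HER2 receptor that the small molecule B/B homodimerizer brings into pairs, so that HER2 signals without ligand. Both genotypes share this background, and one is wild type (WT) and the other a JNK knockout (JNKKO). After 7 days all cultures lost EGF and received, for 14 days, ethanol (control), the homodimerizer (dimerizer), or the homodimerizer with TGF-β1, to a total of 21 days. Each of the 6 groups has 3 libraries. TGF-β1 without dimerizer was not analysed here, and the labels do not say which JNK gene was edited or whether JNKKO is 1 clone. The labels name no separate cultures or days for the 3 libraries within a group. The p-values accordingly measure how far these libraries spread, which may be technical.

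BMP ligands bind paired kinase receptors, which phosphorylate SMAD1, SMAD5 and SMAD9. These join SMAD4, enter the nucleus and switch on a small set of direct targets. The ID genes are the best known of these targets. ID proteins bind bHLH transcription factors and keep them off DNA, which in mammary epithelium is linked to proliferation and to delayed differentiation. SMAD6, BAMBI and, in part, the related SMAD7 are induced by the pathway and inhibit it. ATOH8 is a bHLH factor that BMP receptors induce in other cell types. ID1 also responds to TGF-β in epithelial cells.

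The start-site regions of 6 genes are shown, the direct and feedback targets among the 9 genes that passed the filter, because the results turn on how these targets differed from each other. Each is the 250 bases before the RefSeq start site (GRCh38.p14, 5′ to 3′ on the gene's strand), and capitals mark matches to motifs that SMAD proteins bind. The motifs searched were GGCGCC (a palindrome bound by SMAD1 and SMAD5), CAGAC or its complement GTCTG, and the palindrome GTCTAGAC, none of which contains another. GTCTAGAC was added after the sequences had been read.
ID1: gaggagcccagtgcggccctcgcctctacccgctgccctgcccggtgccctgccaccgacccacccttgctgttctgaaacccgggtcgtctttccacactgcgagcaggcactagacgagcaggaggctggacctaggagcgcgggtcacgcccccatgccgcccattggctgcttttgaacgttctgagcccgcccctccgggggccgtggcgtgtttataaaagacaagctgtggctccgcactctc
ID2: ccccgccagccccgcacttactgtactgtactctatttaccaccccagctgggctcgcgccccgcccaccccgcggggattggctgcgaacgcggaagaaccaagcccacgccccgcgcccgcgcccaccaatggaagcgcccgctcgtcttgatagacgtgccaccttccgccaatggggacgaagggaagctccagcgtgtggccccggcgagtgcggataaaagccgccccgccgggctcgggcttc
ID3: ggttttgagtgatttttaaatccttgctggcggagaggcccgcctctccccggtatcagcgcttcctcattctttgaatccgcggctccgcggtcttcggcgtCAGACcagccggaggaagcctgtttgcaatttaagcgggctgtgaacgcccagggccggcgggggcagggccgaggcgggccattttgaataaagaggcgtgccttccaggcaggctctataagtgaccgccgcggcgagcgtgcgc
SMAD6: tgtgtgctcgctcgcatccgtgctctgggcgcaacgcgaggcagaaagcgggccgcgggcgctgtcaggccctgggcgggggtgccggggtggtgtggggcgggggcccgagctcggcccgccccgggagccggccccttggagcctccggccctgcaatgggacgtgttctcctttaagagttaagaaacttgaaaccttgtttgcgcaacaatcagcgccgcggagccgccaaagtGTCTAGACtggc
ATOH8: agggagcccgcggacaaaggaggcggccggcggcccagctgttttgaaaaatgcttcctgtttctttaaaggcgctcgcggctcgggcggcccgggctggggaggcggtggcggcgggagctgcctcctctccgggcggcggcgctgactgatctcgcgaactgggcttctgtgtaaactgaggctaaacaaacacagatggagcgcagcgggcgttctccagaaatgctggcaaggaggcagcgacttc
BAMBI: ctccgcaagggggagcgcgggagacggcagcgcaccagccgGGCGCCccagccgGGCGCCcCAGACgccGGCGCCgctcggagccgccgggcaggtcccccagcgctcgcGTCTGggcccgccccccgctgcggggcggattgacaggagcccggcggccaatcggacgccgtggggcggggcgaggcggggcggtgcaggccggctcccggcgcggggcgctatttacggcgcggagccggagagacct
The windows are chr20:31605039-31605288 (ID1, plus strand), chr2:8681806-8682055 (ID2, plus strand), chr1:23559502-23559751 (ID3, minus strand), chr15:66701986-66702235 (SMAD6, plus strand), chr2:85753741-85753990 (ATOH8, plus strand) and chr10:28677271-28677520 (BAMBI, plus strand). BAMBI held 3 GGCGCC and 2 CAGAC matches, and ID3 held 1 CAGAC match. SMAD6 held 1 GTCTAGAC, which begins 12 bases before the start site. ID1, ID2 and ATOH8 held none of the 3 motifs in this window. Of 35116 RefSeq windows of this length, 16.38% held GGCGCC, 38.0% held CAGAC on either strand and 0.18% held GTCTAGAC. A match describes letters and is not a measured binding site, and the known BMP response element of ID1 lies further upstream than this window. RefSeq start sites were matched for 9 of the 10 genes, all but BMP2.

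On hg38 with GENCODE 29 all 10 are protein-coding genes. ID1 lies at chr20:31605283-31606515, ID2 at chr2:8678845-8684453, ID3 at chr1:23557918-23559794 and ID4 at chr6:19837386-19840684. SMAD6 lies at chr15:66702228-66782848, SMAD9 at chr13:36844831-36920765 and ATOH8 at chr2:85751344-85788066. BAMBI lies at chr10:28677342-28682939, BMP2 at chr20:6767664-6780280 and BMP4 at chr14:53949736-53958761. The RefSeq start sites used above lie downstream of these gene starts by 3211 bases for ID2 and 2647 for ATOH8. For ID3 and BAMBI the distance is 293 and 179 bases, and for SMAD6 and ID1 8 and 6. The ID2, ATOH8 and ID3 windows, and most of the BAMBI window, therefore lie within the GENCODE gene. Exons of ID2 overlap those of the antisense gene ID2-AS1 on the other strand. The strand setting of the counting is not given in the sources used here. ID2 values are uncertain to that extent.

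Library totals ran from 24243537 to 34499651 expected counts. Levels are given as CPM, the expected counts per 1000000 of a library after TMM scaling (factors of 0.962 to 1.04). The 7 mammary epithelial markers summed to between 2891 and 5146 TPM (transcripts per 1000000) over libraries, most of it KRT5. Among other cell types, the endothelial markers VWF, CDH5, TIE1 and CLDN5 reached at most 0.05, 0.02, 0.03 and 0.14 TPM in any library, and PTPRC (leukocytes) and PDGFRA (fibroblasts) at most 0.26 and 0.08. The 7 endothelial markers summed to 5.58 to 9.89 TPM over the 18 libraries, most of it KDR except in JNKKO dimerizer, where TEK averaged 5.44 TPM and KDR 2.35. CD68 and DCN, which carry most of the immune and fibroblast sums, reached 40.16 and 111.3 TPM. PECAM1, on the endothelial list, and CD79A, on the immune list, reached 2.29 and 3.14 TPM. None of the 24 markers was at 0 in all 18 libraries. Mitochondrial transcripts made up 15.1 to 15.3% of counts in WT control and 5.24 to 10.9% in the other 15 libraries. MAPK9, which encodes JNK2, was at 42.1 to 53.9 CPM in the 9 JNKKO libraries and 57.1 to 68.4 in the 9 WT libraries, while MAPK8 and MAPK10 did not separate the genotypes in every treatment. A knockout need not lower the transcript. WT dimerizer with TGF-β1 replicate 3 carries a genotype tag of JNK knockout against its title. It was kept with its title and had 65.4 CPM of MAPK9. Without it the counts of the 10 genes called were 6 for TGF-β1 in WT, 8 for JNKKO against WT with TGF-β1, as with it, and 5 for the interaction with TGF-β1, which had 6 with it, BAMBI being the call lost (-0.32, edgeR adjusted p = 0.161).

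Per transcript length, ID1 and ID3 were the most abundant of the 10 in WT control acini, at 184 and 155 TPM on average (n = 3). ATOH8 followed at 53.7, ID2 at 25.2, BMP2 at 11.6, SMAD9 at 8.76, SMAD6 at 5.49 and BAMBI at 3.11 TPM. BMP4 was near 0.997 TPM, with 31 to 46 counts per WT control library and 12 to 46 over all 18 libraries. ID4 had 0 counts in 16 libraries and at most 3 in the other two. A count of 0 allows up to 0.0843 to 0.128 CPM (3 counts), a limit that covers counting error only. With dimerizer in WT, ATOH8 averaged 1.92 TPM, below BAMBI at 4.07, BMP2 at 3.53, SMAD9 at 2.93 and ID2 at 2.40.

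The first question was how HER2 dimerization altered these genes in WT acini, the difference on which SMAD6 and ATOH8 were chosen. ATOH8 stood at 91.3, 95.4 and 103 CPM in WT control and at 2.69, 3.30 and 3.60 in WT dimerizer libraries, and SMAD6 stood at 14.3, 15.3 and 18.8 against 0.764, 0.758 and 0.562. Neither gene's groups overlapped, and the log2 differences were -4.91 ± 0.11 (SE) for ATOH8 and -4.54 ± 0.20 for SMAD6. SMAD6, which blocks the BMP receptors and SMAD1, had only 20 to 26 counts per library with dimerizer. On the scale log2(TPM + 1), which compresses low genes, the SMAD6 difference was -2.36. The ID genes were lower as well.

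ID2 stood at 16.2, 15.5 and 15.8 CPM in WT control and 1.73, 1.81 and 1.43 with dimerizer, a log2 difference of -3.26 ± 0.12. ID3 stood at 122, 129 and 133 CPM against 35.9, 34.1 and 36.1, a difference of -1.85 ± 0.05. ID1 stood at 111, 120.0 and 125 CPM against 40.9, 37.3 and 36.7, a difference of -1.63 ± 0.11. In each of the 3 ID genes every dimerizer library lay below every control library. The ligand BMP2 was at 32.7, 29.8 and 33.5 CPM in control and 9.06, 8.90 and 9.05 with dimerizer, a log2 difference of -1.83 ± 0.07. SMAD9, the only BMP transducer among the 10, was at 37.4, 37.5 and 37.0 CPM against 11.7, 11.5 and 11.7, a difference of -1.68 ± 0.06. BAMBI, a kinase-less receptor that dampens TGF-β and BMP signals, went the other way by 0.28 ± 0.13, from 4.16 ± 0.478 to 5.04 ± 0.141 CPM (mean ± SD, n = 3). BMP4 differed by -0.07 ± 0.28, with overlapping libraries.

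Of the 9 genes that passed the filter, 8 had a negative log2 difference in WT and 7 were lower by more than 2-fold, with a median of -1.83 against 0.03 over all genes tested. In the same contrast edgeR's quasi-likelihood test with Benjamini-Hochberg adjustment (threshold 0.05, written below as edgeR adjusted p) called 30.3% of all genes higher and 25.6% lower, and 8.44% called with at least a 2-fold difference. Because the rule used this contrast, nothing is read from the comparison with that background. The WT control libraries also had the highest mitochondrial share. With mitochondrial genes left out of the library sizes the differences were -4.92 for ATOH8, -4.55 for SMAD6, -3.27 for ID2, -1.87 for ID3 and -1.65 for ID1. Less RNA per cell and fewer cells that hold the RNA cannot be told apart in these bulk samples.

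**Figure D1:**
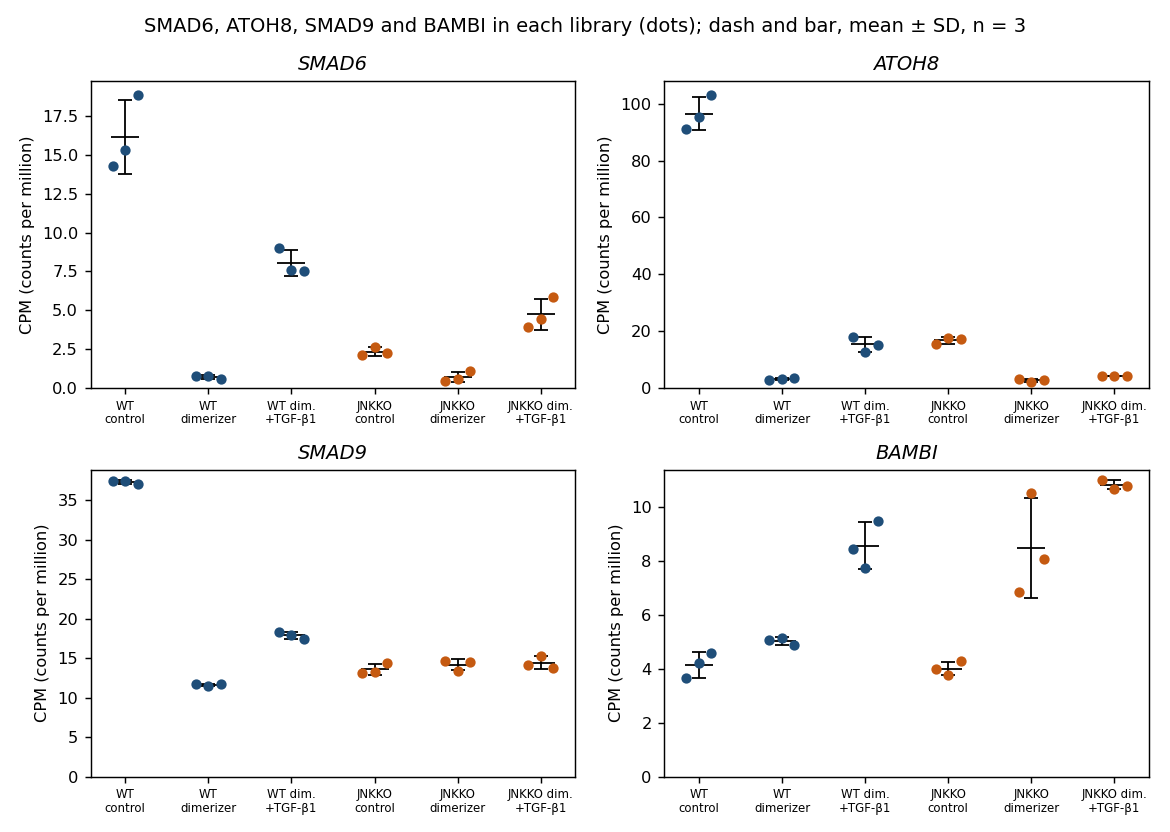
CPM of SMAD6, ATOH8, SMAD9 and BAMBI (vertical axes, from 0) in each of 18 libraries (dots) by group (horizontal axes), with mean ± SD, n = 3. SMAD6 and ATOH8 were highest in WT control and lowest in the dimerizer groups, SMAD9 was highest in WT control, and BAMBI was highest in JNKKO with dimerizer and TGF-β1 (10.8 ± 0.173 CPM).

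The same treatment was then compared in JNKKO acini, in libraries that the selection of SMAD6 and ATOH8 did not use. The set of genes itself was chosen with earlier results of these data known. There 4 of the 9 tested genes fell, ATOH8, ID2, SMAD6 and ID3, while ID1 and BAMBI rose. Over all genes 22.5% were called higher and 17.9% lower, and 5.59% were called with at least a 2-fold difference, as were 4 of the 9. The median of the 9 log2 differences was -0.37, beside 0.01 over all genes. The 5 immune markers summed to 7.36 to 7.77 TPM in JNKKO control and 32.0 to 35.9 with dimerizer. CD68, which epithelial cells also express, averaged 5.02 TPM in JNKKO control and 33.6 with dimerizer. CD79A went the other way, from 2.24 to 0.777 TPM, and PTPRC was at most 0.26 in any library. TEK, on the endothelial list, averaged 0.303 TPM in JNKKO control and 5.44 with dimerizer. KDR and PECAM1, on the same list, went the other way, from 5.81 to 2.35 and from 2.01 to 1.38 TPM. VWF, CDH5 and TIE1 stayed at or under 0.05 TPM in every library. The part of these immune and endothelial markers in the results was not tested.

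ATOH8 was at 15.4, 17.6 and 17.3 CPM in JNKKO control and 3.08, 2.08 and 2.77 with dimerizer, and fell by 2.68 ± 0.14 on the log2 scale (edgeR adjusted p = 8.87e-12). SMAD6 was at 2.11, 2.65 and 2.22 CPM against 0.427, 0.575 and 1.09, and fell by 1.69 ± 0.26 (edgeR adjusted p = 1.27e-05). The 3 dimerizer libraries held only 10, 18 and 34 counts of SMAD6, and leaving out single libraries moved its log2 difference between -2.18 and -1.48. All control libraries lay above all dimerizer libraries for both genes.

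ID2 was at 6.66, 7.17 and 6.24 CPM in JNKKO control and 2.35, 2.17 and 1.61 with dimerizer, and fell by 1.72 ± 0.13 on the log2 scale (edgeR adjusted p = 1.71e-11). ID3 was at 54.0, 58.1 and 59.7 CPM against 39.98, 36.3 and 39.2, and fell by 0.57 ± 0.05 (edgeR adjusted p = 2.58e-10). ID1 was at 55.7, 69.7 and 67.5 CPM against 101, 109 and 95.4, and rose by 0.66 ± 0.10 (edgeR adjusted p = 0.000164). Among the ID genes, then, ID1 alone was higher with dimerizer in JNKKO, and its libraries did not overlap. BAMBI was at 3.98, 3.78 and 4.29 CPM in control and 6.88, 10.5 and 8.08 with dimerizer, and rose by 1.09 ± 0.13 (edgeR adjusted p = 5.86e-08). BMP2, at 11.2 ± 0.594 and 9.98 ± 0.680 CPM, and SMAD9, at 13.6 ± 0.729 and 14.2 ± 0.665 CPM, did not pass the test (edgeR adjusted p = 0.109 and 0.492). BMP4 had a log2 difference of -0.37 ± 0.30 (edgeR adjusted p = 0.355).

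Between genotypes the dimerizer response differed by 2.29 ± 0.15 on the log2 scale for ID1, JNKKO minus WT, where WT was -1.63 ± 0.11 and JNKKO 0.66 ± 0.10. The same difference was 2.85 ± 0.38 for SMAD6, 2.22 ± 0.22 for ATOH8, 1.74 ± 0.09 for SMAD9 and 1.67 ± 0.11 for BMP2. It was 1.53 ± 0.19 for ID2, 1.28 ± 0.07 for ID3, 0.81 ± 0.18 for BAMBI and -0.30 ± 0.41 for BMP4. These values contain the contrast behind the choice of genes and carry no test. For this contrast edgeR called 21.4% of all genes higher and 21.2% lower, and 9.15% with at least a 2-fold difference. SMAD6, for example, averaged 16.2 CPM in WT control and 2.33 in JNKKO control, and 0.695 and 0.699 with dimerizer.

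**Figure D2:**
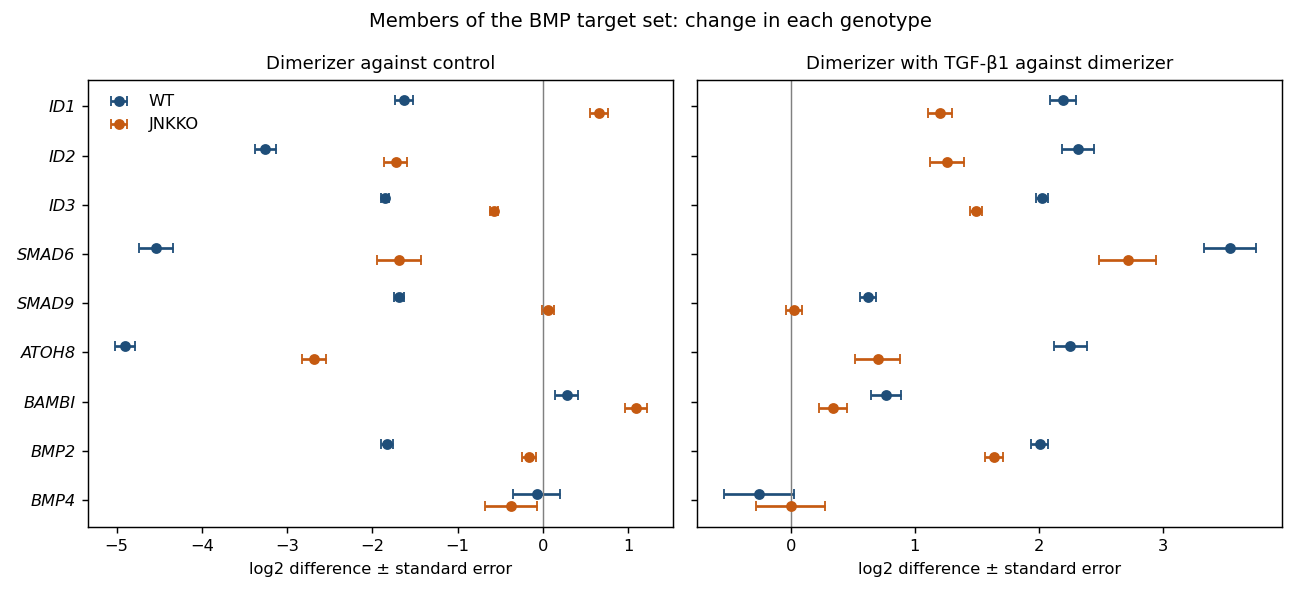
Log2 difference ± standard error (horizontal axes) of 9 genes for dimerizer against control (left) and for dimerizer with TGF-β1 against dimerizer (right), in WT (blue) and JNKKO (orange) acini. With dimerizer, ID1 lay at -1.63 in WT and 0.66 in JNKKO, and with TGF-β1 at 2.19 in WT and 1.20 in JNKKO. The WT values on the left, and those of SMAD6 and ATOH8 in WT on the right, carry no test.

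Adding TGF-β1 to the dimerizer addressed whether a second signal altered the levels reached with dimerizer. In WT acini 6 of the 7 genes that could be tested rose and none fell, and the genes that rose by more than 2-fold were ID1, ID2, ID3 and BMP2. Over all genes edgeR called 33.4% higher, 31.8% lower and 15.8% with at least a 2-fold difference. This comparison shares the WT dimerizer libraries with the one above, so a low level there enters both. The 5 fibroblast markers summed to 13.2 to 14.1 TPM without and 82.8 to 120.2 TPM with TGF-β1, mostly DCN. COL6A3 averaged 0.09 and 7.80 TPM, and PDGFRA was at most 0.08 TPM in any library. The 7 epithelial markers summed to 4720 to 5146 TPM without and 3552 to 4161 with TGF-β1. The part of these markers in the results was not tested. ID1 was at 148, 182.6 and 194 CPM with TGF-β1, against 40.9, 37.3 and 36.7 with dimerizer alone, a rise of 2.19 ± 0.11 (edgeR adjusted p = 2.17e-10). ID2 was at 8.82, 8.55 and 7.28 CPM, against 1.73, 1.81 and 1.43, a rise of 2.31 ± 0.13 (edgeR adjusted p = 1.53e-15). ID3 was at 142, 139.7 and 149 CPM, against 35.9, 34.1 and 36.1, a rise of 2.02 ± 0.05 (edgeR adjusted p = 4.96e-24). For these 3 genes no library with TGF-β1 overlapped those without it, and the share of all genes so separated was not counted.

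BMP2, which encodes a secreted ligand, was at 33.4, 37.9 and 37.1 CPM with TGF-β1 in WT and rose by 2.00 ± 0.07 (edgeR adjusted p = 1.78e-20). SMAD9 was at 18.3, 17.9 and 17.4 CPM and rose by 0.62 ± 0.06 (edgeR adjusted p = 6.52e-10). BAMBI was at 8.46, 7.76 and 9.50 CPM and rose by 0.77 ± 0.12 (edgeR adjusted p = 1.93e-06). SMAD9 thus reached 47.9% of its WT control level, where BMP2 reached 113%. SMAD6 was at 9.01, 7.62 and 7.50 CPM and ATOH8 at 18.04, 12.6 and 15.2, log2 differences of 3.53 ± 0.21 and 2.25 ± 0.13 with no test. BMP4 did not pass the test, at -0.25 ± 0.28 (edgeR adjusted p = 0.444).

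In JNKKO acini 7 of 9 tested genes rose with TGF-β1 and none fell, and 5 rose by more than 2-fold, against 30.5% of all genes called higher, 30.3% lower and 14.3% with at least a 2-fold difference. The median of the 9 log2 differences was 1.20, where it was -0.01 over all genes. This comparison shares the JNKKO dimerizer libraries with that of dimerizer against control in JNKKO. The fibroblast markers summed to 11.8 to 18.7 TPM without and 67.8 to 85.3 with TGF-β1 here. DCN averaged 13.5 and 52.1 TPM, and COL6A3 0.613 and 23.1. The 7 epithelial markers summed to 3938 to 4391 TPM without and 2891 to 3004 with TGF-β1. KRT5 carried most of this sum, at 3743 TPM on average without and 2029 with TGF-β1. KRT14 (138 and 357), KRT8 (115 and 316) and KRT18 (175 and 193) were higher with TGF-β1. CDH1, TP63 and EPCAM were lower. The part of these markers in the results was not tested. SMAD6 was at 3.92, 4.46 and 5.86 CPM and rose by 2.71 ± 0.23 (edgeR adjusted p = 2.84e-10), from 0.699 ± 0.350 CPM without TGF-β1. ATOH8 was at 4.24, 4.26 and 4.21 CPM and rose by 0.70 ± 0.18 (edgeR adjusted p = 0.00220), from 2.64 ± 0.512 CPM. For both genes the libraries did not overlap, but ATOH8 with TGF-β1 stayed at 4.39% of its WT control level.

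ID1 was at 229, 240.4 and 232 CPM with TGF-β1 in JNKKO and rose by 1.20 ± 0.10 (edgeR adjusted p = 1.02e-07). ID2 was at 4.55, 5.33 and 4.603 CPM and rose by 1.26 ± 0.14 (edgeR adjusted p = 5.00e-09). ID3 was at 105, 114 and 106 CPM and rose by 1.49 ± 0.05 (edgeR adjusted p = 1.20e-20). The ID1 level in this group was the highest of the 6 groups, whereas ID2 and ID3 were higher in WT with the same treatment. BMP2 was at 29.5, 31.7 and 32.2 CPM and rose by 1.64 ± 0.07 (edgeR adjusted p = 5.58e-18). BAMBI was at 11.03, 10.7 and 10.8 CPM and rose by 0.34 ± 0.11 (edgeR adjusted p = 0.0106). The BAMBI call was lost without JNKKO dimerizer replicate 1 (0.22, edgeR adjusted p = 0.0999) or replicate 3 (0.30, edgeR adjusted p = 0.0512). SMAD9 (14.4 ± 0.831 CPM) and BMP4 did not pass the test, at 0.03 ± 0.06 and -0.00 ± 0.28 (edgeR adjusted p = 0.751 and 1). On log2(TPM + 1) SMAD9 passed at 0.21 (limma adjusted p = 0.00218), on a scale that moved the median of all genes by 0.17.

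The TGF-β1 responses of the 2 genotypes were compared directly by an interaction term. Of 7 genes tested 6 were called, all with a negative difference (JNKKO minus WT), and for this contrast edgeR called 14.1% of all genes higher, 18.8% lower and 5.56% with at least a 2-fold difference. The JNKKO minus WT difference was -1.06 ± 0.20 for ID2 (edgeR adjusted p = 0.000108), -0.99 ± 0.14 for ID1 (0.000120) and -0.53 ± 0.07 for ID3 (6.02e-07). It was -0.60 ± 0.09 for SMAD9 (edgeR adjusted p = 6.50e-06) and -0.37 ± 0.10 for BMP2 (0.00471). For ID1 the smaller rise began from a JNKKO dimerizer level of 102 ± 6.83 CPM, where WT began from 38.3 ± 2.24. BAMBI was called at -0.43 ± 0.16 (edgeR adjusted p = 0.0460), a call that DESeq2 did not make (-0.41, adjusted p = 0.0912) and that was lost in 9 of 12 fits without 1 library. BMP4 did not pass (0.25 ± 0.42, edgeR adjusted p = 0.693). SMAD6 and ATOH8 had values of -0.82 ± 0.36 and -1.55 ± 0.23 with no test. The SMAD6 value was -0.33 without JNKKO dimerizer replicate 3, which held 34 of the SMAD6 counts in that group, and ran from -1.03 to -0.68 without any other single library.

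**Figure D3:**
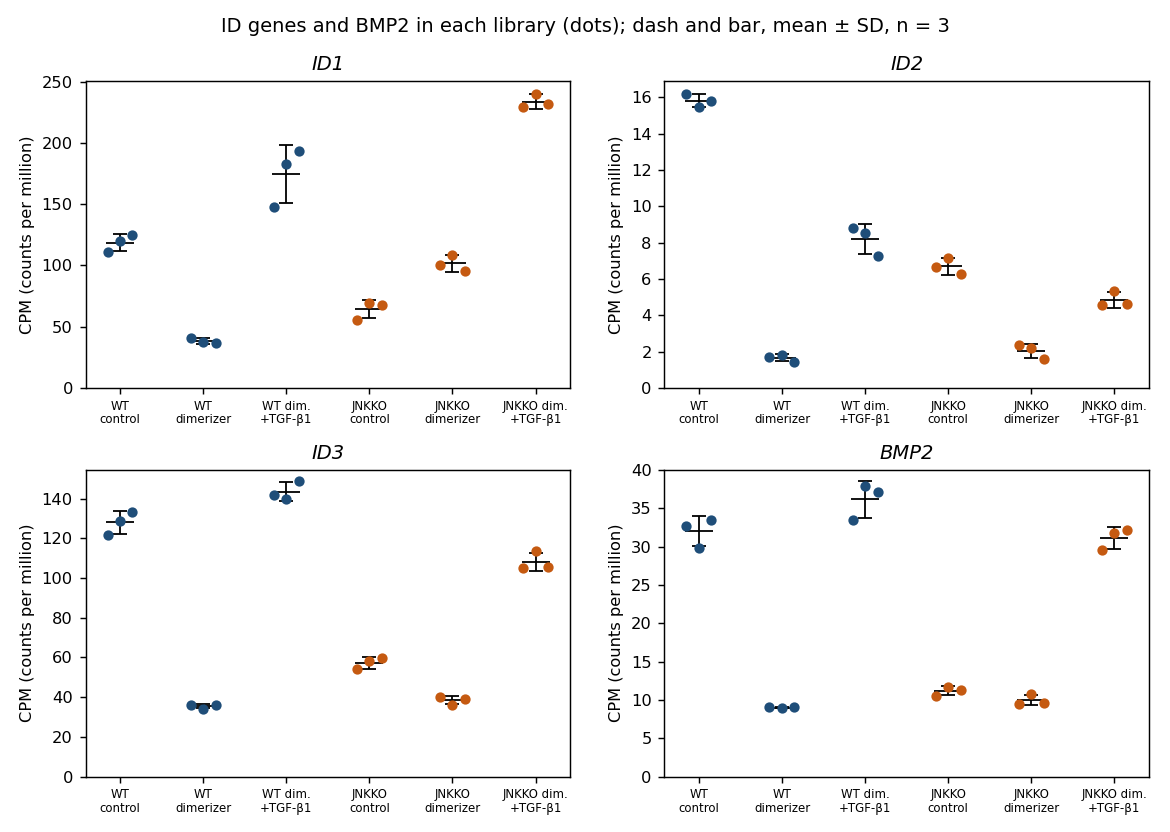
CPM of ID1, ID2, ID3 and BMP2 (vertical axes, from 0) in each of 18 libraries (dots) by group (horizontal axes), with mean ± SD, n = 3. ID3 and BMP2 have nearly the same profile, while ID1 departs from it in JNKKO with dimerizer (102 ± 6.83 CPM, above its JNKKO control at 64.3 ± 7.50).

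The effect of genotype was next compared within each treatment. In control acini 5 of the 7 tested genes were lower in JNKKO and none was higher, and 4 were lower by more than 2-fold. Over all genes edgeR called 25.8% higher, 23.5% lower and 7.64% with at least a 2-fold difference. From the library values above, ID1 differed by -0.88 ± 0.10 (edgeR adjusted p = 7.47e-06), ID2 by -1.24 ± 0.10 (3.65e-11) and ID3 by -1.16 ± 0.05 (6.57e-18). BMP2 differed by -1.52 ± 0.07 (edgeR adjusted p = 8.37e-17) and SMAD9 by -1.46 ± 0.06 (8.14e-18). None of these 5 genes had an overlap between the 3 JNKKO and the 3 WT control libraries. The share of all genes so separated was not counted. BAMBI and BMP4 did not pass, at -0.05 ± 0.14 and -0.21 ± 0.29 (edgeR adjusted p = 0.789 and 0.565). SMAD6 and ATOH8, with no test, stood at 14.4% and 17.4% of their WT control CPM. This comparison shares the WT control libraries, with their high mitochondrial share, with the WT dimerizer comparison. With mitochondrial genes left out the values were -0.89 for ID1, -1.25 for ID2 and -1.17 for ID3.

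With dimerizer 3 of the 7 tested genes were higher in JNKKO and none lower, 1 of them by more than 2-fold, against 21.6% of all genes called higher, 18.5% lower and 5.38% with at least a 2-fold difference. ID1 was higher by 1.41 ± 0.11 (edgeR adjusted p = 1.55e-07) and BAMBI by 0.76 ± 0.12 (7.73e-06), and in neither did libraries overlap. SMAD9 was higher by 0.28 ± 0.07 (edgeR adjusted p = 0.000753), a call lost on log2(TPM + 1) (0.12, limma adjusted p = 0.0670). The remaining genes had no called difference with dimerizer. ID2 and ID3 did not pass, at 0.29 ± 0.16 and 0.12 ± 0.05 (edgeR adjusted p = 0.158 and 0.0669), although the ID3 libraries did not overlap. Each passed without a single JNKKO dimerizer library, ID2 without replicate 3 (0.45, edgeR adjusted p = 0.0406) and ID3 without replicate 2 (0.16, edgeR adjusted p = 0.0208). BMP2 and BMP4 did not pass, at 0.15 ± 0.08 and -0.51 ± 0.29 (edgeR adjusted p = 0.131 and 0.174). SMAD6 and ATOH8 differed by 0.06 ± 0.32 and -0.30 ± 0.19 with no test, and both had overlapping libraries.

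With dimerizer and TGF-β1 all 9 genes could be tested, 6 were lower in JNKKO and 2 higher, 1 of them by more than 2-fold. Over all genes edgeR called 26.5% higher, 26.4% lower and 9.51% with at least a 2-fold difference. ATOH8 differed by -1.85 ± 0.13 (edgeR adjusted p = 2.66e-10), at 4.23 ± 0.0260 CPM in JNKKO and 15.3 ± 2.72 in WT. SMAD6 differed by -0.76 ± 0.15 (edgeR adjusted p = 0.000211), at 4.75 ± 1.001 against 8.04 ± 0.836 CPM. ID2 differed by -0.76 ± 0.11 (edgeR adjusted p = 1.21e-06), ID3 by -0.41 ± 0.04 (7.60e-09) and SMAD9 by -0.31 ± 0.06 (0.000110). ID1 ran the other way from ID2 and ID3, higher in JNKKO by 0.42 ± 0.10 (edgeR adjusted p = 0.00213). BMP2 differed by -0.22 ± 0.06 (edgeR adjusted p = 0.00334), a call lost without WT dimerizer with TGF-β1 replicate 2 (-0.16, edgeR adjusted p = 0.0506). BAMBI was higher by 0.34 ± 0.11 (edgeR adjusted p = 0.0123), a call lost without the same library (0.29, edgeR adjusted p = 0.0520) and on log2(TPM + 1) (0.27, limma adjusted p = 0.0528). BMP4 did not pass, at -0.26 ± 0.30 (edgeR adjusted p = 0.492).

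Over the 6 groups, ATOH8 spanned a log2 range of 5.17 between its highest and lowest mean, SMAD6 4.49, ID2 3.21, ID1 2.61, ID3 2.02, BMP2 2.00, SMAD9 1.68, BAMBI 1.42 and BMP4 0.62. Over all 16911 genes the median range was 0.77, the 90th percentile 2.34 and the 99th percentile 5.17. ID1 ran from JNKKO with TGF-β1 through WT with TGF-β1, WT control, JNKKO dimerizer and JNKKO control to WT dimerizer, and no neighbours in that order overlapped. ID3 ran from WT with TGF-β1 through WT control, JNKKO with TGF-β1, JNKKO control and JNKKO dimerizer to WT dimerizer, also with no overlap between neighbours. ID2 and SMAD6 shared the order WT control, WT with TGF-β1, and the 2 dimerizer groups last, which overlapped in both genes. ATOH8 was highest in WT control, followed by JNKKO control and WT with TGF-β1, whose libraries overlapped. SMAD9 was highest in WT control and in WT with TGF-β1, and its 3 JNKKO groups overlapped with each other. BAMBI was highest in JNKKO with TGF-β1, and its WT with TGF-β1 and JNKKO dimerizer libraries overlapped. BMP2 formed a high set (both groups with TGF-β1, and WT control) and a low set (the other three), and BMP4 overlapped in every neighbouring pair.

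The root mean square difference between 2 genes' group means of log2 CPM, each centred on its own mean, was used to compare profiles. Over the 36 pairs of the 9 genes it was smallest for ID3 and BMP2, at 0.17, and largest for ATOH8 and BAMBI, at 2.16. It was 0.56 for ID1 and ID3, 0.60 for ID2 and ID3, and 0.71 for ID2 and SMAD6. These distances describe 6 group means from shared libraries and carry no test.

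**Figure D4:**
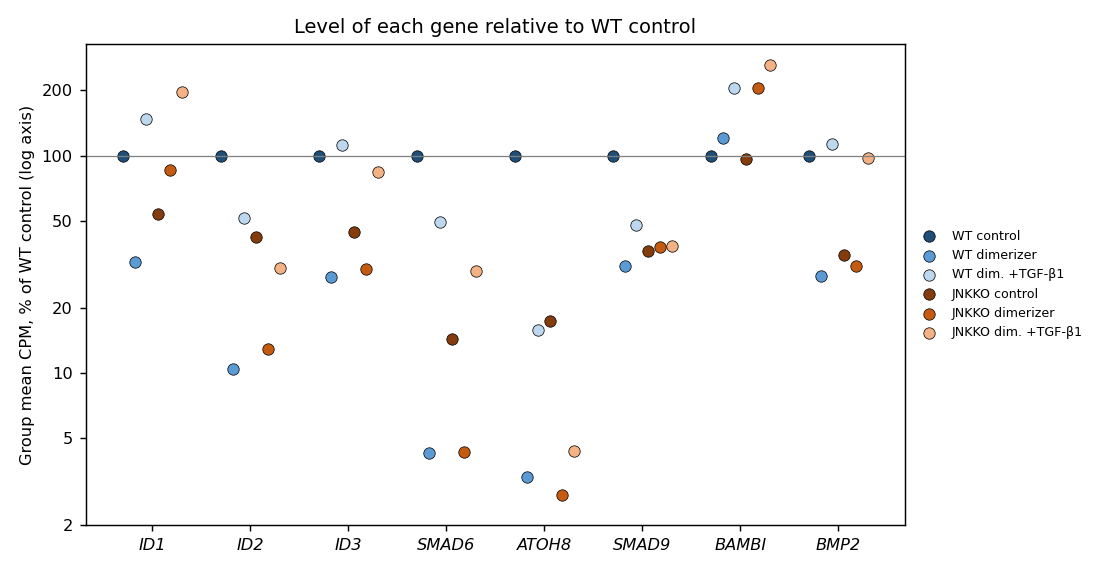
Group mean CPM as a percentage of the WT control mean (vertical axis, log scale) for 8 genes (horizontal axis) in the 6 groups (colours). SMAD6 and ATOH8 stood at 4.30% and 3.31% in WT dimerizer and at 4.33% and 2.73% in JNKKO dimerizer, while ID1 stood at 32.3% and 85.7%.

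Among 11134 candidate genes, those nearest to the ID1 profile were THEMIS2 (0.23), IRS2 (0.27), FSTL3 (0.29) and PLXNA2 (0.29). IRS2, an adaptor of insulin receptor signalling, averaged 116 CPM in WT control, 47.3 in WT dimerizer, 65.1 in JNKKO control and 96.4 in JNKKO dimerizer. The nearest to SMAD6 were SAMD11 (0.55), GPR1 (0.59), PLEKHA7 (0.66) and CRYAB (0.73). CRYAB, a small heat shock protein, averaged 25.5 CPM in WT control, 5.74 in JNKKO control and 4.36 in WT dimerizer. The nearest to ATOH8 were DLX3 (0.57), WISP2 (0.57), MMP7 (0.59) and ANKRD2 (0.67). MMP7, a secreted metalloproteinase, averaged 16.6 CPM in WT control, 4.46 in JNKKO control and 0.995 in WT dimerizer.

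The rest of the pathway was read from 6 lists of 67 genes, of which 46 were tested. In WT acini with dimerizer 16 of the 46 rose and 15 fell, and in JNKKO 11 rose and 12 fell. With TGF-β1 added, 28 rose and 7 fell in WT, with a median log2 difference of 0.45, and 24 rose and 7 fell in JNKKO, with a median of 0.26. The background shares were given above for each contrast, with 33.4% of all genes called higher with TGF-β1 in WT and 30.5% in JNKKO. The lists were chosen with earlier results of these data known, and the WT count uses the WT dimerizer libraries of the selection. Nothing is therefore read from these counts beside that background. In JNKKO against WT the counts were 13 higher and 12 lower for control acini. They were 14 higher and 10 lower under dimerizer, and 10 higher and 17 lower once TGF-β1 was added.

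Of the other 12 BMP ligands 4 were tested. BMP6 averaged 0.121 CPM in JNKKO control and 2.44 with dimerizer, from 10 counts over the 3 libraries to 213, and rose by 4.30 ± 0.39 (edgeR adjusted p = 5.18e-10). It was also higher in JNKKO than in WT with dimerizer, by 2.63 ± 0.31 (edgeR adjusted p = 5.74e-08). BMP7 fell with dimerizer in JNKKO by 1.44 ± 0.44 (edgeR adjusted p = 0.0158).

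Of the receptors and co-receptors 9 of 11 were tested. With TGF-β1, 4 rose and 1 fell in each genotype. Beside this, 33.4% of all genes were called higher and 31.8% lower in WT, and 30.5% and 30.3% in JNKKO. ACVR1, a type I receptor, rose by 0.95 ± 0.06 in WT and 0.77 ± 0.06 in JNKKO (edgeR adjusted p = 9.46e-15 and 1.70e-12), and BMPR2, the type II receptor, by 0.75 ± 0.05 and 0.73 ± 0.05 (4.81e-14 and 1.55e-13). RGMA, a co-receptor, was higher in JNKKO than WT control by 1.30 ± 0.21 and fell in JNKKO with dimerizer by 1.24 ± 0.21 (edgeR adjusted p = 6.24e-06 and 1.87e-05).

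All 10 SMAD transducers and regulators were tested. SMAD7, an inhibitory SMAD that responds to TGF-β, averaged 18.2 CPM in WT control and 9.93 with dimerizer, and fell by 0.87 ± 0.08 (edgeR adjusted p = 7.39e-11). With TGF-β1 it rose by 2.07 ± 0.07 in WT and 1.76 ± 0.07 in JNKKO (edgeR adjusted p = 1.59e-20 and 9.76e-19). SKIL, a repressor of SMAD signalling, rose with TGF-β1 by 2.52 ± 0.06 in WT and 2.12 ± 0.06 in JNKKO (edgeR adjusted p = 7.28e-24 and 2.21e-22). SMAD5, which transmits the BMP signal, rose with dimerizer in WT by 0.49 ± 0.04 (edgeR adjusted p = 1.41e-10).

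Of 18 secreted antagonists and modulators 9 were tested. NOG, which encodes the BMP trap noggin, averaged 1.79 CPM in WT dimerizer and 6.81 with TGF-β1, a rise of 1.91 ± 0.18 (edgeR adjusted p = 2.69e-10). FSTL3, a secreted binder of activins, fell with dimerizer in WT by 1.11 ± 0.07 and rose in JNKKO by 0.61 ± 0.07 (edgeR adjusted p = 2.53e-10 and 1.25e-06), and the difference between genotypes was 1.71 ± 0.09 (edgeR adjusted p = 2.47e-10). These are the signs that ID1 had in the same contrasts, and FSTL3 was named above among the genes nearest to the ID1 profile. The shared signs are therefore not a separate observation. FSTL1 rose with TGF-β1 by 2.00 ± 0.13 in WT and 4.74 ± 0.12 in JNKKO (edgeR adjusted p = 2.45e-13 and 2.20e-21).

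Of 13 other BMP-responsive transcription factors 11 were tested. With TGF-β1, 10 rose and none fell in WT, and 7 rose and none fell in JNKKO, with median log2 differences of 1.04 and 0.51. Over all genes 33.4% were called higher and 31.8% lower in WT, and 30.5% and 30.3% in JNKKO. DLX2 averaged 2.04 CPM in WT dimerizer and 13.4 with TGF-β1, a rise of 2.71 ± 0.15 (edgeR adjusted p = 1.87e-15), and the rise was smaller in JNKKO by a log2 difference of -1.22 ± 0.22 (9.37e-05). With dimerizer alone 2 rose and 5 fell in WT, and 2 rose and 3 fell in JNKKO. The shares of all genes called were 30.3% higher and 25.6% lower in WT, and 22.5% and 17.9% in JNKKO. DLX3 fell by 3.82 ± 0.25 in WT and by 3.00 ± 0.30 in JNKKO (edgeR adjusted p = 1.84e-13 and 4.26e-09). Its dimerizer levels were low, at 0.426 CPM in WT and 0.288 in JNKKO. DLX3 was named above as nearest to the ATOH8 profile, so its fall is not a separate observation. HEY1, a bHLH repressor also used by Notch, averaged 2.00 CPM in JNKKO control and 9.19 with dimerizer, a rise of 2.19 ± 0.13 (edgeR adjusted p = 1.71e-13). RUNX2, an osteoblast regulator, rose with dimerizer in JNKKO by 1.72 ± 0.16 and with TGF-β1 by 2.78 ± 0.15 in WT and 1.91 ± 0.12 in JNKKO (edgeR adjusted p = 1.04e-09, 4.92e-16 and 2.08e-14).

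The bHLH factors that ID proteins bind, TCF3, TCF4 and TCF12, were all tested. With TGF-β1, TCF3 rose by 0.47 ± 0.05 in WT and 0.32 ± 0.05 in JNKKO, and TCF4 by 0.59 ± 0.06 and 0.76 ± 0.07 (edgeR adjusted p = 4.43e-10, 7.59e-07, 1.88e-09 and 5.26e-11). With dimerizer TCF12 and TCF3 rose in WT by 0.15 ± 0.05 and 0.11 ± 0.05 (edgeR adjusted p = 0.00769 and 0.0494), and TCF4 fell in JNKKO by 0.25 ± 0.07 (0.00443). These are smaller differences than those of ID1, ID2 and ID3 in the same contrasts with TGF-β1.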

How the data were processed

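The authors deposited RSEM expected counts and transcripts per 1000000 (TPM) for each gene in 18 RNA-seq libraries, both per the file headers. The submitters' processing notes name cutadapt, RSEM and the build hg38. The aligner, the gene models behind the counts and the strand setting are not given in the sources used. RSEM divides reads between similar sequences by a model, and a median of 9.35% of values per library were not whole. Libraries were grouped by title.

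The expected counts, rounded to integers, were fitted with edgeR 4.0.16 in R 4.3.3, with 1 mean per group over all 18 libraries, TMM scaling, edgeR's default filter on low counts and the quasi-likelihood F test. P-values were adjusted by the Benjamini-Hochberg method over the 16911 genes tested in each of 9 comparisons, with a threshold of 0.05. Each standard error is the log2 difference over the root of its F value. CPM were computed with TMM-scaled library sizes. TPM, which the authors deposited, were used to compare genes per length. The procedure was tested on simulated data with changes planted only in genes above a minimum mean level. That test therefore does not cover genes with few counts, such as BMP4. The common coefficient of variation between libraries of a group, as edgeR estimates it beyond counting noise, was 4.47%. No 2 libraries of a group were alike within sampling noise (chi-square per gene 2.28 to 12.1), so each was kept as its own sample, which does not show that they came from separate cultures. Of 42141 genes, 42125 were matched to GENCODE 29.

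The members and the lists were chosen with earlier results of these data known. Every member is named in every comparison. From each list and comparison, named genes come from the 3 called genes with the smallest adjusted p that reach 2 CPM in the higher group. For ID1, SMAD6 and ATOH8 the 4 genes most alike are named, out of tested genes with at least 5 CPM in 1 group. Alternatives were RLE size factors, no filter, the replicate block, DESeq2 1.42.0, limma 3.58.1 on log2(TPM + 1) and log2(TPM + 0.1), fits on only the groups compared, leaving out each library, and, added after seeing the data, mitochondrial genes left out. Some gene names in the deposited tables were altered by a spreadsheet or by the string JNKKO put in place of E3. None of the members or list genes is among these.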

Additional observations from a re-analysis of the deposited data

Results flagged for a closer look

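For 6 of 7 genes tested the log2 difference made by TGF-β1 on top of dimerizer was lower in JNKKO than in WT acini, by a test of the difference itself (edgeR interaction term, adjusted over all genes), where 18.8% of all genes were called lower. The log2 difference, JNKKO minus WT, was -1.06 for ID2, -0.99 for ID1, -0.60 for SMAD9, -0.53 for ID3, -0.43 for BAMBI and -0.37 for BMP2. The BAMBI call was lost with RLE size factors (adjusted p = 0.0568), DESeq2 (adjusted p = 0.0912), mitochondrial genes left out (adjusted p = 0.0587), limma on both TPM scales (adjusted p = 0.293 and 0.260) and in 9 of 12 edgeR fits without 1 library, where its value lay between -0.55 and -0.24. SMAD9 did not pass the test for TGF-β1 within JNKKO.

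ID1 moved in opposite directions with dimerizer. Each of the 3 WT dimerizer libraries lay below each WT control library, and each of the 3 JNKKO dimerizer libraries lay above each JNKKO control library, a difference between genotypes of 2.29 on the log2 scale. This difference was not tested, since it contains the contrast from which SMAD6 and ATOH8 were chosen.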

How the results depend on the processing

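In the 7 comparisons with a test, the number of tested genes called (9 tested, or 7 where SMAD6 and ATOH8 have no test) stayed within 1.5 times its value under every alternative run, and no called difference changed sign. The replicate numbers did not pair the samples: the correlation of deviations lay between -0.0585 and 0.0529 over 21 pairs of same-numbered libraries, with 0 over 0.1. With the replicate block the counts of genes called were 6 for dimerizer in JNKKO, 6 and 7 for TGF-β1 in WT and JNKKO, and 5, 3 and 8 for JNKKO against WT in control, dimerizer and TGF-β1, each equal to the count without it. Leaving out 1 library moved these counts to between 6 and 7 (TGF-β1 in JNKKO), 3 and 4 (JNKKO against WT with dimerizer), 6 and 8 (with TGF-β1) and 5 and 6 (interaction with TGF-β1). The log2 difference of BMP2 in that interaction lost its call on log2(TPM + 0.1) (-0.27, limma adjusted p = 0.0544), and BMP2 with dimerizer in JNKKO gained one (-0.20, limma adjusted p = 0.0398).

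The deposited TPM scale shifted the balance of calls over all genes. On log2(TPM + 1) 6260 genes were higher and 2820 lower with dimerizer in WT, against 5125 and 4326 in edgeR. With TGF-β1 they were 7171 and 3661 against 5643 and 5380 in WT, and 8049 and 2637 against 5154 and 5117 in JNKKO. For JNKKO against WT with dimerizer they were 1793 and 5452 against 3654 and 3121, for the interaction with dimerizer 2086 and 4904 against 3611 and 3589, and for that with TGF-β1 3350 and 1962 against 2391 and 3179. The median over all genes moved by up to 0.17 on that scale and 0.23 on log2(TPM + 0.1). SMAD6 with dimerizer in WT was -2.36 and -3.97 on these scales. Depth limits SMAD6 with dimerizer (10 to 34 counts per library) and BMP4 (12 to 46).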

Other observations

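The ratio of ID1 to ID3 in TPM separated the dimerizer-treated JNKKO groups from the other libraries. It averaged 1.18 ± 0.014 (SD, n = 3) in WT control, 1.39 ± 0.0823 in WT dimerizer, 1.57 ± 0.198 in WT with TGF-β1 and 1.43 ± 0.103 in JNKKO control. It was 3.39 ± 0.392 in JNKKO dimerizer and 2.81 ± 0.0488 in JNKKO with TGF-β1. The lowest ratio in those 6 libraries was 2.75, and the highest in the other 12 was 1.69. This ratio was chosen after the values had been seen and carries no test.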
